A study of Mus musculus with 24 samples.

Results

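The genes described here are 10 components of the machinery that places, removes and reads N6-methyladenosine (m6A), a methyl mark on the adenosines of messenger RNA. They were listed by name: the writer subunits Mettl14, Mettl3, Wtap, Virma and Zc3h13, the erasers Fto and Alkbh5, and the readers Ythdf1, Ythdf2 and Ythdc1. All 10 were among the 18777 named genes of the table, and all 10 passed the filter on low values, a mean of at least 1 FPKM (fragments per kilobase of transcript, scaled to the size of the library), with 13806 genes in all. Mettl14 was selected on measured values: 5 of 6 libraries of the diet richest in branched-chain amino acids had less of it than the libraries of the poorest. Its partners, the erasers and the readers were set beside it for their known roles.

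RNA came from the hypothalamus of C57BL6 mice aged 15 months, which ate 1 of 4 diets of equal energy and macronutrient content, starting at 12 weeks. Branched-chain amino acids (BCAA), which are valine, leucine and isoleucine, were set to 20, 50, 100 or 200% of those in AIN93G, a purified rodent diet, and the diets are called BCAA20, BCAA50, BCAA100 (named Chow in the titles) and BCAA200. Each diet had 3 females (replicates 1 to 3) and 3 males (replicates 4 to 6), which gave 24 libraries. The 6 BCAA100 libraries ran in lane 2 and the 18 others in lane 1, so that any difference from BCAA100 cannot be told apart from the lane.

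METTL3 and METTL14 form the core of the nuclear writer complex. METTL3 binds the methyl donor and carries the catalytic site, and METTL14 does not catalyse but holds the RNA and stabilises its partner. WTAP, VIRMA and ZC3H13 form a regulatory unit that keeps the core in nuclear speckles and steers it to its sites. FTO and ALKBH5 are oxygenases that can remove the methyl group. YTH domain proteins bind the mark: YTHDF1 and YTHDF2 in the cytoplasm, where YTHDF2 promotes decay of the RNA, and YTHDC1 in the nucleus, where it acts on splicing and export. Fto is abundant in the hypothalamus, where its loss and gain alter body weight in mice.

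Some libraries stood apart. Slc17a7, the vesicular glutamate transporter typical of cortical neurons, lay between 3.99 and 12.6 FPKM in 3 libraries (BCAA50 female replicate 1 and BCAA100 male replicates 5 and 6) and between 106 and 249.8 FPKM in the other 21. BCAA50 female replicate 1 and BCAA100 male replicate 6 were also rich in 8 listed thalamus markers, with sums of 186 and 244 FPKM against diet medians of 34.0 and 47.8. Their sums over 9 oligodendrocyte markers were 2803 and 3957 FPKM, against diet medians of 1799 and 1654. BCAA100 male replicate 6 was also lowest in hypothalamic markers: the 16 listed summed to 29.0 FPKM, 3 of them at 0 (Hcrt among them), against a highest sum of 1176 FPKM in BCAA100 male replicate 5. The next highest sum, 1077 FPKM, was that of BCAA50 female replicate 1, against a diet median of 412. Low Slc17a7 thus went with high hypothalamic marker sums in these libraries, but not in BCAA100 male replicate 6. How much cortical tissue the other 21 libraries held was not tested. The library labelled BCAA20 male replicate 6 had Xist at 154 FPKM and the Y-linked Ddx3y at 0. In bulk tissue, fewer cells of a type and less RNA per cell cannot be told apart.

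Mettl14 lies on chromosome 3 from 123368297 to 123386108 on the minus strand (GRCm38) and overlaps no other annotated gene. On BCAA20 it was at 6.90, 6.88 and 6.15 FPKM in the females and at 4.91, 6.27 and 5.07 FPKM in the males. On BCAA200 it was at 2.77, 2.45 and 2.73 FPKM in the females and at 3.31, 6.03 and 2.57 FPKM in the males. Thus 5 of 6 BCAA200 libraries lay below every BCAA20 library, and the exception, male replicate 5, lay within the BCAA20 range. Among all tested genes, 107 (0.775%) had at least 5 of 6 BCAA200 libraries below the lowest BCAA20 library. These values chose the gene, and no test of them is given.

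The other diets spanned the interval between those groups. On BCAA50 Mettl14 was at 6.25, 3.89 and 6.16 FPKM in the females and at 5.22, 3.55 and 4.13 FPKM in the males. On BCAA100 it was at 3.02, 5.69 and 3.88 FPKM in the females and at 4.62, 3.45 and 6.63 FPKM in the males. The order of the means was 6.03 ± 0.862 under BCAA20, 4.87 ± 1.18 under BCAA50, 4.55 ± 1.39 under BCAA100 and 3.31 ± 1.37 under BCAA200 (SD, n = 6). Each of these groups overlapped its neighbours in that order.

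The log2 change of Mettl14 in BCAA200 against BCAA20 was -0.83 (SE 0.186), on the log2(FPKM + 0.5) scale used throughout, which understates changes of low genes. It was the 51st lowest of the 13806 changes. In females the BCAA200 mean was 2.65 ± 0.176 FPKM and the BCAA20 mean 6.64 ± 0.425 (SD, n = 3), and the groups were far apart. In males they were 3.97 ± 1.82 and 5.42 ± 0.742 FPKM (SD, n = 3), and the groups overlapped. The latter mean includes the library labelled male replicate 6, whose sex-linked genes go against its label; the other BCAA20 males, at 4.91 and 6.27 FPKM, overlapped the BCAA200 males as well. In the same comparison 12 of 13 tested hypothalamus markers had lower values under BCAA200 (median log2 difference -0.65), and the summed level of all 16 lay between 149.7 and 689.9 FPKM there and between 378 and 553 FPKM under BCAA20. All 9 striatum markers had higher values (median 0.42), with sums from 99.6 to 619 against 129 to 507 FPKM. All 5 blood markers had lower values (median -0.67), with sums from 315 to 1628 against 290.4 to 3775 FPKM. All 3 tested choroid plexus markers had higher values (median 0.45), and the sums of all 6 ran from 4.09 to 381 against 2.59 to 15.0 FPKM. All 7 astrocyte markers (median -0.06) and all 5 tested thalamus markers (median -0.07) had lower values, as did 7 of 9 oligodendrocyte markers (median -0.06), while 9 of 11 cortex and hippocampus markers (median 0.08) and 6 of 8 microglia markers (median 0.04) had higher ones. Over all tested genes 55.1% had lower values (median -0.01). With limma 1 choroid plexus and 1 microglia marker had an unadjusted p below 0.05, both higher, where 2.89% of tested genes did. None of the hypothalamus, striatum, blood, astrocyte, thalamus, oligodendrocyte or cortex and hippocampus markers did. The part of these tissues and cells in the values of Mettl14 was not tested.

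BCAA50 against BCAA100 is the one diet comparison whose libraries did not choose Mettl14. The mean difference in log2(FPKM + 0.5), BCAA50 minus BCAA100, was 0.10, smaller than the spread within either diet (two-sided exact permutation p = 0.617, n = 6 against 6). The limma interval of this difference, which covers 95%, ran from -0.29 to 0.49 (adjusted p = 0.918).

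**Figure D1:**
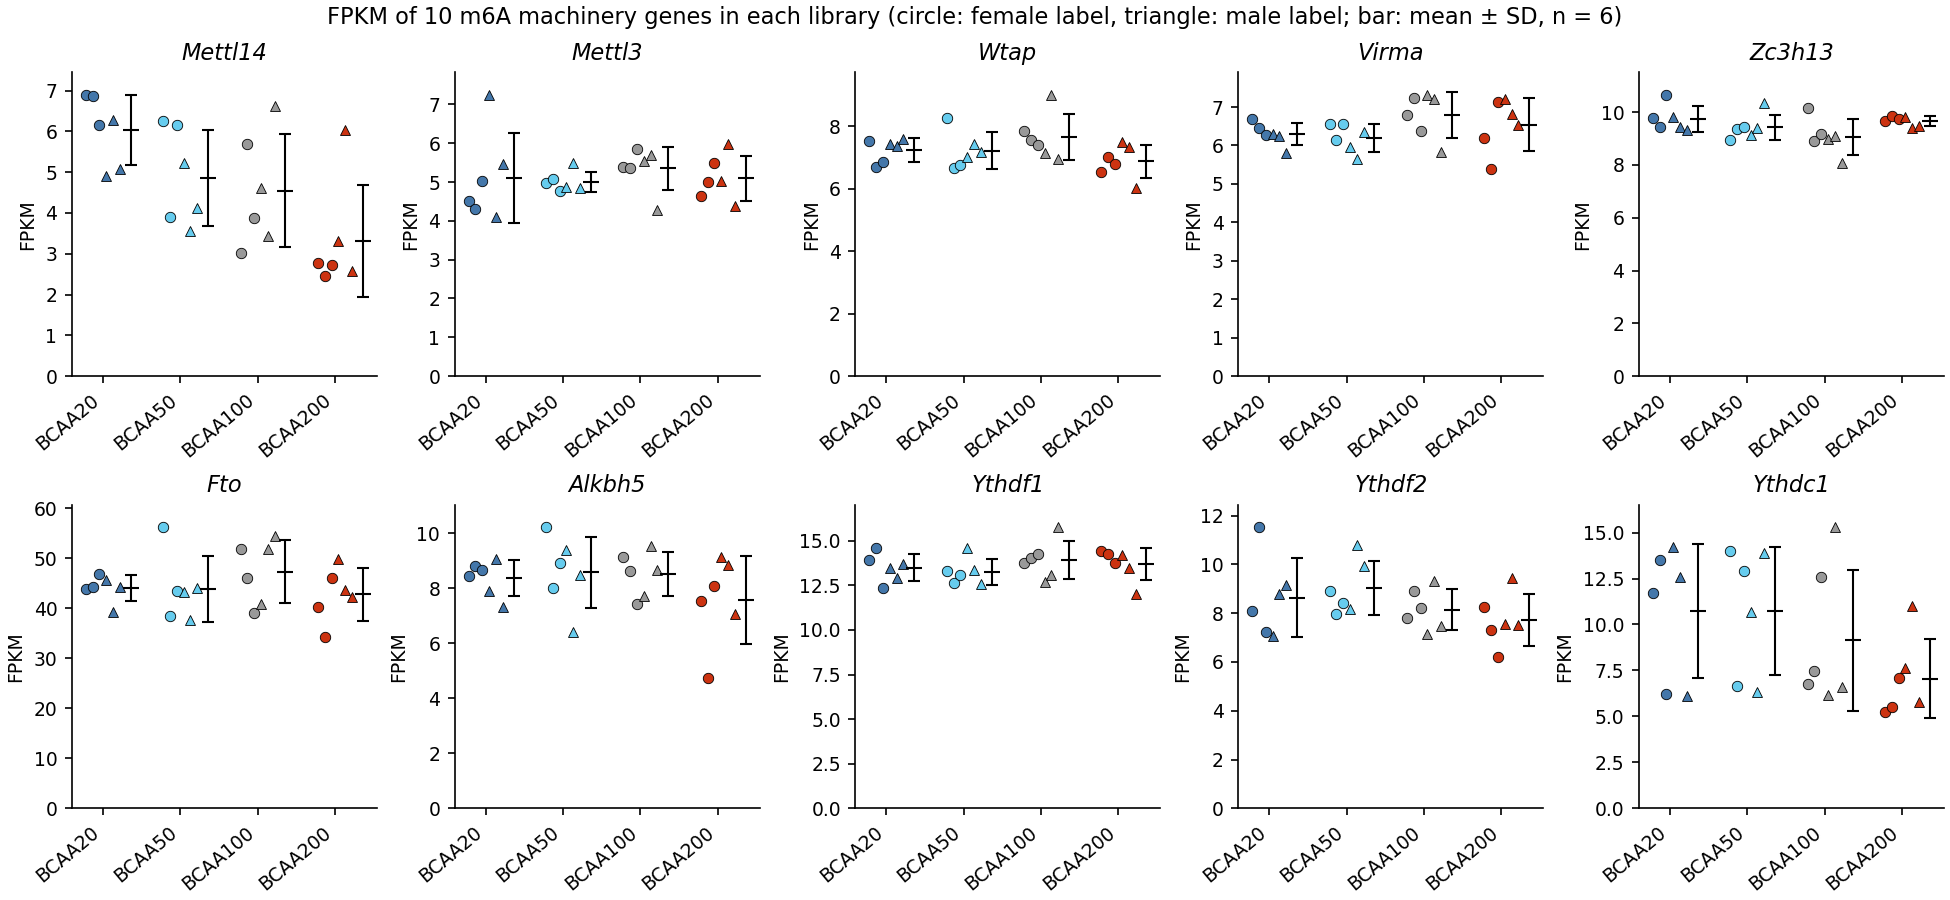
FPKM of each m6A gene (vertical axes, from 0) in each library by diet (horizontal axes); circles are libraries labelled female, triangles male, and bars give the mean ± SD (n = 6). Mettl14 lies between 2.45 and 3.31 FPKM in 5 of 6 BCAA200 libraries, and Wtap, Virma, Zc3h13 and Ythdf1 stay within narrow ranges. Ythdc1 splits into a high and a low set over the 24 libraries, with 1 of 6 BCAA200 libraries in the high set.

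Mettl3, the catalytic partner, showed no such separation of the diets. It was between 4.09 and 7.25 FPKM under BCAA20 (median 4.77) and between 4.40 and 5.98 under BCAA200 (median 5.02), so that the BCAA200 range lay within that of BCAA20. Its log2 change in BCAA200 against BCAA20 was 0.01 (interval from -0.21 to 0.24). The ratio of Mettl14 to Mettl3 within a library was 1.25 ± 0.378 under BCAA20, 0.98 ± 0.266 under BCAA50, 0.878 ± 0.376 under BCAA100 and 0.639 ± 0.192 under BCAA200 (SD, n = 6). FPKM is a value per length, so this ratio compares levels, but it depends on the transcript models behind each gene, and its order repeats that of Mettl14. Mettl3 (chromosome 14, 52294841 to 52305128, minus strand) overlaps Tox4 on the other strand.

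The regulatory subunits were among the steadiest members. Wtap was at 6.88 ± 0.544 FPKM under BCAA200 and 7.25 ± 0.379 under BCAA20 (SD, n = 6). Virma, which the table lists under an older symbol, was at 6.54 ± 0.683 and 6.30 ± 0.291 FPKM. Zc3h13 was at 9.66 ± 0.186 and 9.74 ± 0.491 FPKM. Over all libraries the SD of Zc3h13 was 0.08 on the log2 scale, and 0.565% of tested genes had a smaller one. For Virma and Wtap these shares were 5.57% and 5.66%. The intervals for BCAA200 against BCAA20 ran from -0.13 to 0.11 for Zc3h13, from -0.11 to 0.20 for Virma and from -0.23 to 0.09 for Wtap.

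Fto had the highest level of the members, with a mean of 44.5 ± 5.38 FPKM over the 24 libraries, above 90.6% of tested genes. Its diet means were 44.0 ± 2.58 FPKM under BCAA20, 43.8 ± 6.64 under BCAA50, 47.3 ± 6.35 under BCAA100 and 42.7 ± 5.26 under BCAA200 (SD, n = 6), and all 4 overlapped. In the 3 libraries with low Slc17a7, Fto was between 51.8 and 56.2 FPKM, against 34.3 to 51.9 FPKM in the other 21. Among those 3, BCAA50 female replicate 1 and BCAA100 male replicate 6 were also rich in thalamus and oligodendrocyte markers. BCAA50 female replicate 1 and BCAA100 male replicate 5 had the highest hypothalamus marker sums of the 24 libraries. The part of these tissues and cells was not tested. The part of cortical tissue in the differences between diets was not tested beyond adding a cortex and hippocampus marker score to the fit, under which the differences of BCAA50 and BCAA200 from BCAA100 changed sign. Fto (chromosome 8, 91313525 to 91668439) overlaps 8 annotated genes, mostly predicted, and its value is uncertain to that extent.

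Alkbh5 was at 8.37 ± 0.643 FPKM under BCAA20, 8.57 ± 1.30 under BCAA50, 8.51 ± 0.805 under BCAA100 and 7.56 ± 1.59 under BCAA200 (SD, n = 6). The lowest value, 4.73 FPKM, was that of BCAA200 female replicate 2, which also had the lowest Fto, at 34.3 FPKM. The highest Alkbh5, 10.2 FPKM, was in BCAA50 female replicate 1, which had the highest Fto. Both erasers therefore had their extremes in the same libraries. Slc17a7 was at 249.8 FPKM in BCAA200 female replicate 2, the highest of the 24 libraries, and at 6.23 FPKM in BCAA50 female replicate 1. The part of tissue composition in the shared variation of the erasers was not tested. In the 3 libraries with low Slc17a7 Alkbh5 was between 8.65 and 10.2 FPKM, against 4.73 to 9.40 FPKM in the other 21.

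Over the 24 libraries the erasers varied together: Pearson's r was 0.732 (permutation p = 1e-05, the smallest that the 100000 permutations can give; adjusted p = 0.00045 over the 45 pairs of members). Spearman's rho was 0.617 (permutation p = 0.00171, adjusted p = 0.0594), so that the rank correlation missed the threshold after adjustment. Without the 2 libraries farthest from the median of Fto, r was 0.587 (permutation p = 0.00423). Within lane 1 r was 0.740 and within the 6 lane 2 libraries 0.891, and after subtracting the mean of each diet and sex it was 0.707. The 4 libraries that stood apart were the 3 with low Slc17a7 and the library with unmatched sex-linked genes. Without these 4, but with BCAA200 female replicate 2 kept, r was 0.731. A correlation of that size was not rare: 289 of 13805 other genes had a higher r with Alkbh5 than Fto did, and 697 had a higher r with Fto than Alkbh5 did.

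**Figure D2:**
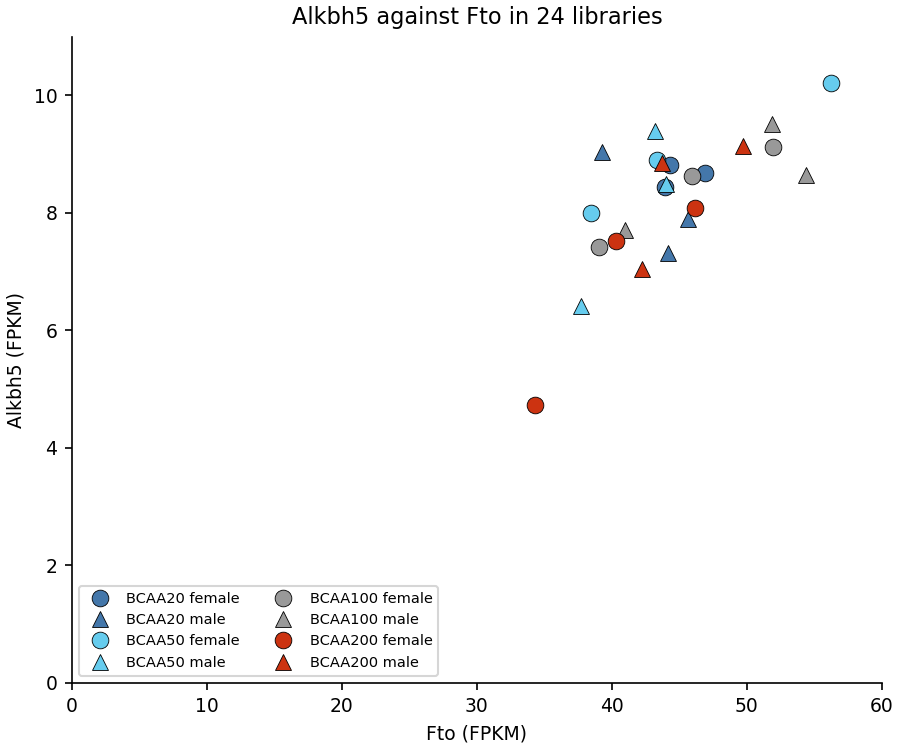
Alkbh5 (FPKM, vertical axis) against Fto (FPKM, horizontal axis) in each of 24 libraries, with colours for diet and symbols for the sex label. Points run from BCAA200 female replicate 2 at the lower left to BCAA50 female replicate 1 at the upper right (r of the log2 values 0.732), and the diets are intermixed.

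The start regions of these erasers are shown because the genes varied together most, and that of Ythdc1 because it was the most variable member. Each run spans 250 bases before to 50 bases after the annotated start (RefSeq, GRCm38.p6), 5′ to 3′ on the gene's strand. Capitals mark matches, on either strand, to GGGCGG (the GC box bound by Sp1), CCAAT, or CCGGAAG (an ETS motif).
Fto, chr8:91313275-91313574, plus strand: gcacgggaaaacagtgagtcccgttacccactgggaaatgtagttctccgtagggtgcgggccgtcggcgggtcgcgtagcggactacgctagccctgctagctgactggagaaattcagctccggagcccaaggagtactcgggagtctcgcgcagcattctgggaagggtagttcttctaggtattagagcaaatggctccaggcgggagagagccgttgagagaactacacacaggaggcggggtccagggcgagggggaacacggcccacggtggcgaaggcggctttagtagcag
Alkbh5, chr11:60537433-60537732, plus strand: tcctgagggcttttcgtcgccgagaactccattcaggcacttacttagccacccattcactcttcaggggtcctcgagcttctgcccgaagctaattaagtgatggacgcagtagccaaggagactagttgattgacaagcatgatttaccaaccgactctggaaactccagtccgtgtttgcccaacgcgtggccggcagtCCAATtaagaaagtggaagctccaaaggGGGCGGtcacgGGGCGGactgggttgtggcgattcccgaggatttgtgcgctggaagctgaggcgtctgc
Ythdc1, chr5:86804016-86804315, plus strand: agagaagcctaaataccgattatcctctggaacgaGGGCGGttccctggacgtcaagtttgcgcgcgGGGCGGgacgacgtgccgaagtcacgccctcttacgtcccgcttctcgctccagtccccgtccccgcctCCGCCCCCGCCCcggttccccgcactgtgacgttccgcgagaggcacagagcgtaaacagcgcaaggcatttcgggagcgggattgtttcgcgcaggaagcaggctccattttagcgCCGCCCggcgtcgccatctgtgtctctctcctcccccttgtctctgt

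Of the 10 members, 8 had 1 or more start regions in the table, 11 in all; Mettl14 and Virma had none. The Fto run held none of these motifs, Alkbh5 held 2 GC boxes and 1 CCAAT, and Ythdc1 held 5 GC boxes, with adjacent matches joined in the longest stretch of capitals. Among 32851 start regions of the same length, 35.7% held GGGCGG, 37.4% CCAAT and 8.86% CCGGAAG. The eraser windows thus shared no match to these letters. Their GC contents were 60.7% for Fto, 55.3% for Alkbh5 and 64.0% for Ythdc1, against a median of 52.7%, and they held 23, 18 and 35 CpG against a median of 7. Rpgrip1l, a ciliary gene, starts 263 bases from Fto on the other strand, so that the part of the Fto run before the Fto start lies between these starts. It was at 3.15 ± 0.492 FPKM over the 24 libraries (SD), and its r with Fto was 0.10.

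Ythdc1, the nuclear reader, was the most variable member, with an SD of 0.51 on the log2 scale, larger than that of 87.8% of tested genes. Its values fell into a low set of 13 libraries, from 5.22 to 7.63 FPKM (median 6.35), and a high set of 11, from 10.7 to 15.3 FPKM (median 12.9). No library lay between 7.63 and 10.7 FPKM. This split was seen in the data and is a description. The high set held 4 of 6 libraries under BCAA20, 4 under BCAA50, 2 under BCAA100 and 1 under BCAA200.

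On BCAA20 Ythdc1 was at 11.7, 13.5 and 6.20 FPKM in the females and at 14.2, 12.6 and 6.11 FPKM in the males. On BCAA200 it was at 5.22, 5.53 and 7.12 FPKM in the females and at 7.63, 10.998 and 5.80 FPKM in the males. The high BCAA200 library was male replicate 5, the same in which Mettl14 was high. Anapc4, another gene with low values under BCAA200, is described since it moved with Mettl14 in earlier results of these data. In BCAA200 male replicate 5 it was at 12.6 FPKM, within the other BCAA200 libraries' range of 10.9 to 12.6. Such a level was not confined to BCAA200: Anapc4 was at 12.6 FPKM in BCAA20 female replicate 3 and at 13.2 FPKM in BCAA50 female replicate 2. All other libraries outside BCAA200 were at 21.9 FPKM or more.

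The log2 change of Ythdc1 in BCAA200 against BCAA20 was -0.54 (SE 0.287, interval from -1.14 to 0.06, limma adjusted p = 1.00), and it did not pass. Means were 7.05 ± 2.15 FPKM under BCAA200 and 10.7 ± 3.64 under BCAA20 (SD, n = 6). Ythdc1 (chromosome 5, 86804221 to 86836659, plus strand) has 9 annotated transcripts, 3 of them protein coding and 4 with a retained intron, and overlaps a predicted noncoding gene on its own strand. Mettl14 has 5 annotated transcripts, 1 with a retained intron. How fragments were shared among transcripts and overlapping genes is not stated in the labels, and their part in the split of Ythdc1 was not tested.

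**Figure D3:**
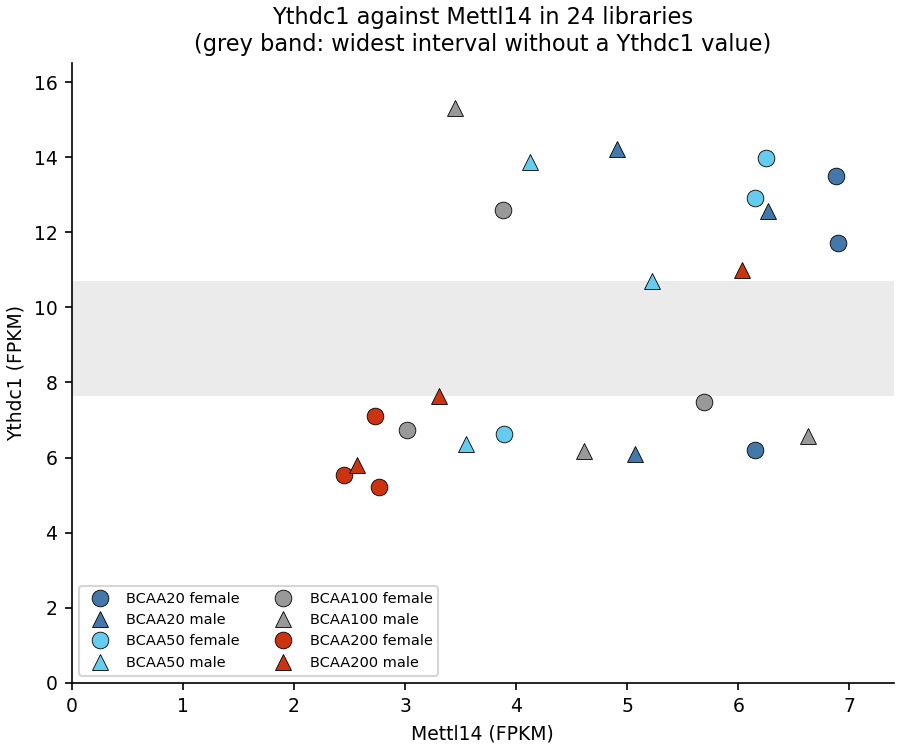
Ythdc1 (FPKM, vertical axis) against Mettl14 (FPKM, horizontal axis) in each of 24 libraries, with colours for diet and symbols for the sex label; the grey band marks the interval from 7.63 to 10.7 FPKM without a Ythdc1 value. The 5 BCAA200 libraries with low Mettl14 sit below the band, BCAA200 male replicate 5 is high in both genes, and the grey BCAA100 points do not follow the same diagonal.

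The cytoplasmic readers varied less. Ythdf1 was at 13.7 ± 0.886 FPKM under BCAA200 and 13.5 ± 0.773 under BCAA20 (SD, n = 6), and its interval ran from -0.11 to 0.15. Over all libraries 1.42% of tested genes had a smaller SD than Ythdf1. Ythdf2 was at 7.71 ± 1.07 and 8.64 ± 1.64 FPKM, with an interval from -0.38 to 0.09.

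Mettl14 was left out of the tests of BCAA200 against BCAA20, since these libraries chose it. None of the other 9 members passed there with limma (Benjamini-Hochberg adjusted p over all tested genes, threshold 0.05), where 0% of tested genes passed. Of these 9 members, 0 had an unadjusted p below 0.05, where 2.89% of tested genes did. Of the 9, 6 had changes below 0, with a median of -0.05, against 55.1% and a median of -0.01 over all tested genes. In BCAA50 against BCAA20 and BCAA200 against BCAA50, again 0 of 9 had an unadjusted p below 0.05, where 2.68% and 2.52% of tested genes did. These comparisons share libraries and are not independent.

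The trend over the lane 1 diets gave Ythdc1 a slope of -0.17 per doubling of BCAA content (SE 0.0782, unadjusted p = 0.0421, limma adjusted p = 1.00). It was 1 of 9 members with an unadjusted p below 0.05, where 3.3% of tested genes had one, and 0% passed after adjustment. The slope of Mettl14, whose libraries chose it, was -0.25 (SE 0.0543). The authors' deposited table gives a Pearson correlation of each gene's FPKM with BCAA intake: it was -0.595 for Mettl14, -0.388 for Ythdc1, -0.364 for Ythdf2 and 0.271 for Virma, with the other members between -0.289 and 0.0996. Intake forms separate clusters by diet, and the coefficients include the lane 2 group. That of Mettl14 also rests on the libraries that chose it and is given as a description.

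**Figure D4:**
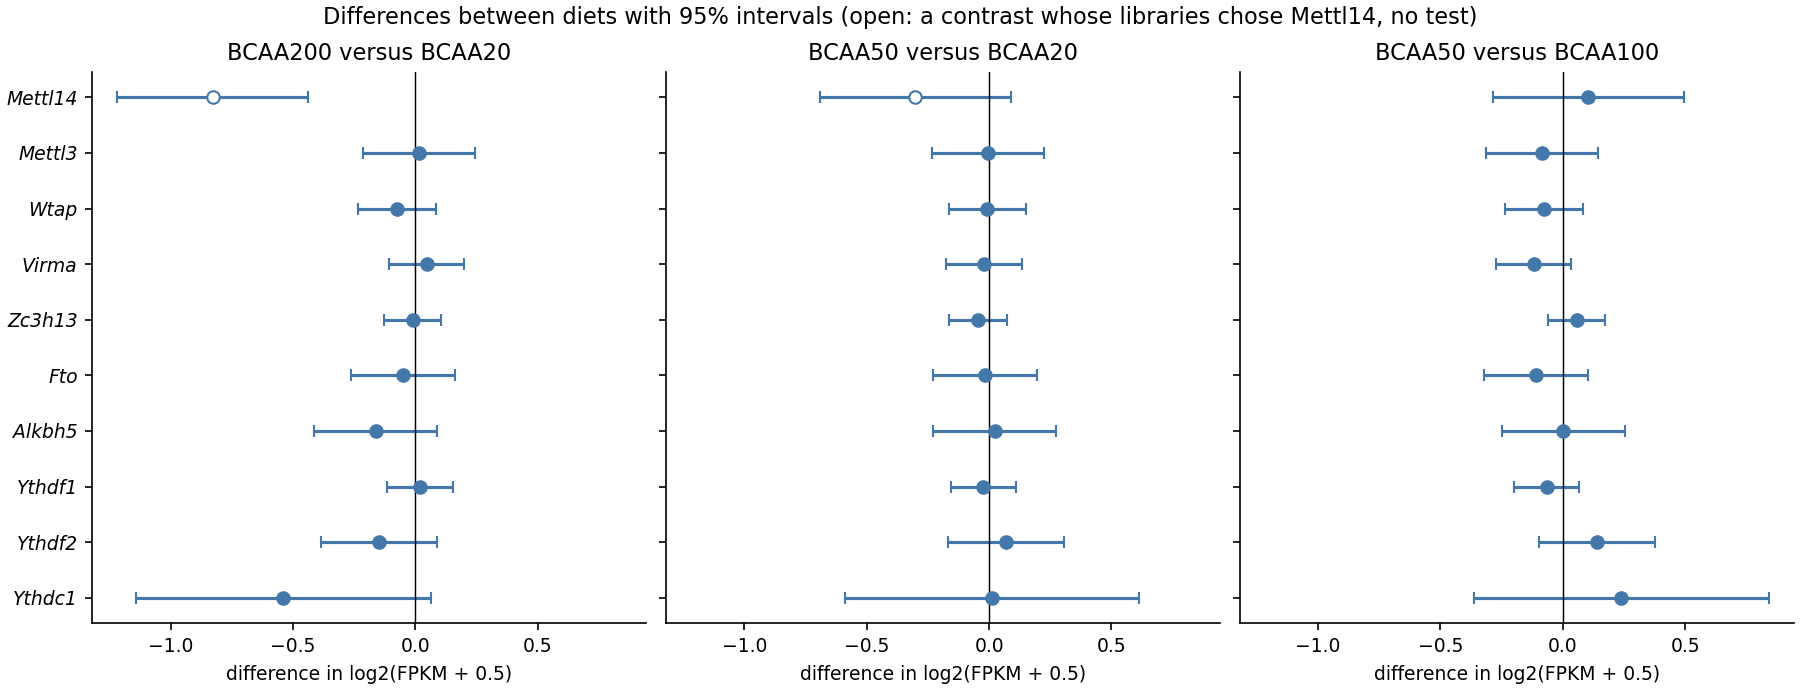
Differences in log2(FPKM + 0.5) between diets (horizontal axes) for each member (vertical axis), with 95% limma intervals. Open points mark Mettl14 in contrasts whose libraries chose it. Their intervals come from the values that chose the gene, so that their distance from 0 is no test. For the 9 other members every interval shown includes 0, and that of Ythdc1 is the widest.

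Against the standard content, where diet and lane cannot be told apart, no tested member passed with limma, where 0.0145% of tested genes passed in BCAA200 against BCAA100 and 0% in the others. In BCAA20 and in BCAA200 against BCAA100, 0 of 9 members had an unadjusted p below 0.05, where 7.09% and 11.7% of tested genes did. In BCAA50 against BCAA100 it was 0 of 10, where 7.65% of tested genes did. The lowest unadjusted p of the 3 comparisons, which share the BCAA100 libraries, was that of Wtap in BCAA200 against BCAA100 (log2 change -0.14, SE 0.0759, limma unadjusted p = 0.0742). Next was Zc3h13 in BCAA20 against BCAA100 (0.10, SE 0.056, limma unadjusted p = 0.0864). In BCAA200 against BCAA100, 8 of 9 members had values below 0 (median -0.08), where 62.6% of all tested genes did (median -0.05).

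Between the sexes as labelled, with BCAA20 replicate 6 counted as male, the 10 members, Mettl14 included, had log2 differences, male minus female, from -0.03 for Zc3h13 to 0.08 for Ythdc1. None passed, where 0.0652% of tested genes did, and none had an unadjusted p below 0.05, where 4.27% of tested genes did; the lowest was that of Zc3h13 (limma unadjusted p = 0.402). The interval for Mettl14 ran from -0.26 to 0.29. This comparison includes the libraries that chose Mettl14, with both sexes equally present in each diet, so its values for that gene are a description. The BCAA200 against BCAA20 contrast differed between males and females for 0 of the 9 other members at an unadjusted p below 0.05, where 3.56% of tested genes did; for Alkbh5 the difference was 0.40 (interval from -0.10 to 0.90).

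Other genes of the pathway were taken from lists of known components. Of the 3 further writer subunits (Rbm15, Rbm15b and Cbll1), 10 other RNA methyltransferases and 9 genes of the S-adenosylmethionine cycle, which supplies the methyl donor, none had an unadjusted p below 0.05 in BCAA200 against BCAA20. Of 7 further readers, 1 did, which makes 1 of 29 genes in all, where 2.89% of tested genes did, a share near this one: Ythdc2, a reader with helicase activity known from the germ line. It was at 4.10 ± 0.237 FPKM under BCAA200 and 5.07 ± 0.868 under BCAA20 (SD, n = 6), with overlapping groups (log2 change -0.26, SE 0.102, unadjusted p = 0.0187, limma adjusted p = 1.00). Its values under BCAA50 and BCAA100, 4.20 ± 0.432 and 4.19 ± 0.473 FPKM, lay near that of BCAA200. For Ythdc2 the limma unadjusted p was 0.033 in BCAA50 against BCAA20 and 0.0294 in the lane 1 trend. In BCAA50 against BCAA100 none of these 29 genes had an unadjusted p below 0.05, where 7.65% of tested genes did. In BCAA20 against BCAA100 1 of 7 readers (Ythdc2), 2 of 10 methyltransferases and 1 of 9 S-adenosylmethionine cycle genes did, where 7.09% of tested genes did. None of them passed after adjustment.

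Among members, Alkbh5 (r = 0.538) and Ythdc1 (r = 0.480) were most like Mettl14 over the 24 libraries, and 99.4% and 98.4% of tested genes had a lower r with it. These libraries include the ones that chose Mettl14. Their r with it is therefore given as a description, with no test. For Alkbh5 Spearman's rho was 0.420, and r was 0.344 without BCAA200 female replicate 2 and BCAA200 male replicate 6, 0.657 in lane 1 and -0.211 in the 6 libraries of lane 2. For Ythdc1 Spearman's rho was 0.424, and r was 0.368 without those same libraries, 0.713 in lane 1 and -0.450 in lane 2. Both values thus had the opposite sign in lane 2.

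The complex partners were less like Mettl14: r was -0.191 for Mettl3, 0.149 for Wtap, 0.0279 for Virma and -0.300 for Zc3h13, given as descriptions over the same libraries. Alkbh5 also varied with Virma (r = 0.560, permutation p = 0.00342, adjusted p = 0.0385; Spearman's rho 0.408, permutation p = 0.0487, adjusted p = 0.259). It did so with Ythdc1 as well (r = 0.538, permutation p = 0.00265, adjusted p = 0.0385; Spearman's rho 0.595, permutation p = 0.00264, adjusted p = 0.0594). Without the 2 farthest libraries these were 0.458 (permutation p = 0.0321) and 0.499 (permutation p = 0.0187). They were 0.661 and 0.636 in lane 1 and 0.135 and 0.123 in lane 2. The adjusted p-values cover all 45 pairs of members, among them the pairs of Mettl14 that are given as descriptions only, and depend on them.

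**Figure D5:**
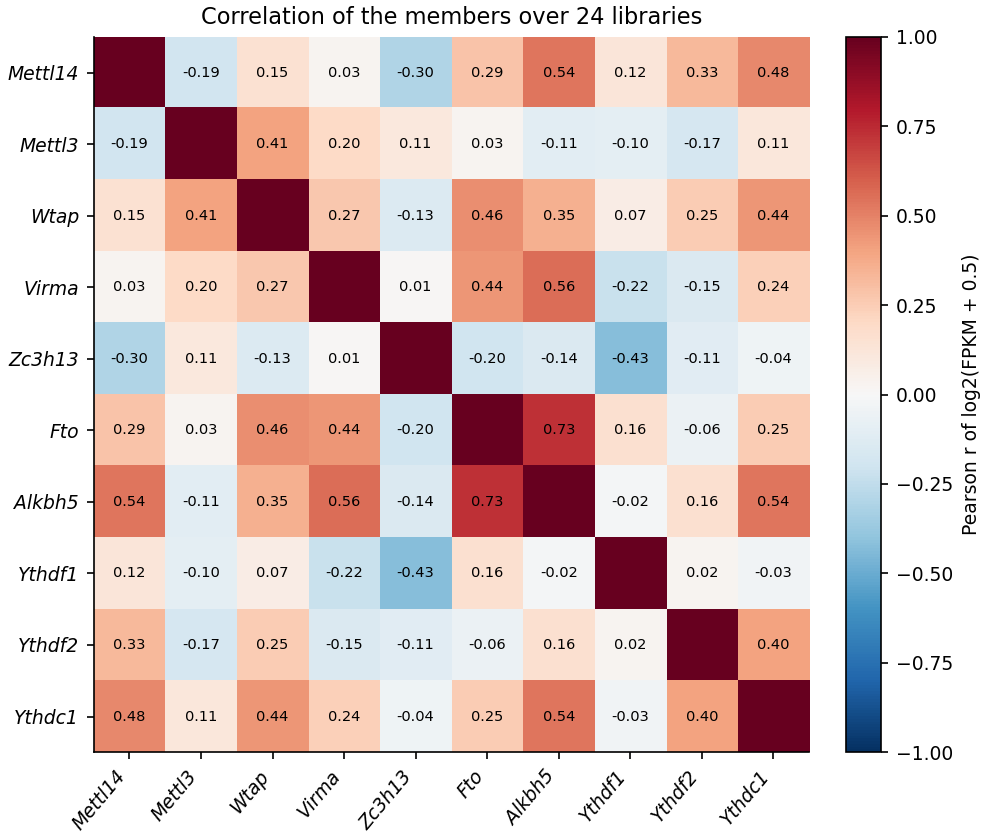
Pearson's r of log2(FPKM + 0.5) over 24 libraries for each pair of the m6A genes, printed in each cell and coloured from -1 (blue) to 1 (red). The strongest cell off the diagonal is that of Fto with Alkbh5 at 0.73, and Mettl14 with Mettl3 is at -0.19.

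Over all tested genes with established symbols, those most like Mettl14 over the 24 libraries, by Pearson's r, were Dync1li2, a dynein light intermediate chain (0.653), Snx18, a sorting nexin (0.653), Senp5, a SUMO protease (0.641), Mvk, mevalonate kinase (0.640) and Rnf6, a ubiquitin ligase (0.637). Least like it were Echdc2 (-0.722), the small nucleolar RNA Snord19 (-0.657), Zfp28 (-0.655), Dmwd (-0.649) and Hes1 (-0.641), a Notch target. These are the extremes among the genes with established symbols, out of 13805 correlations in all, and a description of these libraries. Mettl14's neighbours on the chromosome were unlike it. Sec24d, which ends 2656 bases away, was at 3.34 ± 0.745 FPKM under BCAA200 and 2.77 ± 0.439 under BCAA20 (SD, n = 6; r = -0.204 with Mettl14), and Prss12, 60805 bases away, was at 3.31 ± 0.964 and 2.78 ± 1.06 FPKM (r = -0.178).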

How the data were processed

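Hypothalamic RNA of 24 mice was measured after a stranded kit, per the labels' protocols. The authors deposited FPKM per gene and library and, in the same table, a correlation score per gene (Pearson, against intake) with an unadjusted p-value. Per the submitters' processing notes, TopHat2 2.0.14 and StringTie 1.2.4 were used with GRCm38; their roles are not stated. The annotation and strand setting of the counting are not given in the sources used here. FPKM gives no depth: the depth is unknown, and columns summed to between 293850 and 328809 FPKM.

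Here the FPKM were put on the log2(FPKM + 0.5) scale, and genes averaging 1 FPKM or more were kept. Limma 3.58.1 (R 4.3.3) fitted linear models with 8 means of diet by sex (mean-variance trend, robust moderation), two-sided, with Benjamini-Hochberg adjustment over all tested genes. The lane 1 trend was fitted on 18 libraries with sex as a term. Permutation tests used scipy 1.17.1. The pipeline was tested on simulated data. Nothing in the labels says whether libraries share cages or litters. Positions are from GENCODE M21. Virma was matched through RefSeq synonyms; 4 listed genes (Igf2bp1, Igf2bp2, Igf2bp3 and Bhmt) matched no row and were not analysed here.

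The members, gene lists and rules were chosen with earlier results of these data known. Named genes are the members, pathway genes with an unadjusted p below 0.05 in BCAA200 against BCAA20 or BCAA50 against BCAA100, the 5 most and 5 least like Mettl14, its neighbours, genes that describe a library, and Anapc4, which moved with Mettl14 in earlier results. Rpgrip1l was added after its values were seen.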

Additional observations from a re-analysis of the deposited data

Results flagged for a closer look

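Of the 40 sets of 6 libraries (10 members in 4 diets), 5 held a library far from the others of its diet by Dixon's criterion. Chance flags about 1 in 20 sets, but the count includes Mettl14 on BCAA200, whose values chose the gene. Mettl14 was at 6.03 FPKM in BCAA200 male replicate 5, against 3.31 in the next highest BCAA200 library. The gene was chosen for low values in 5 of 6 BCAA200 libraries, so this flag is a description and no test. Mettl3 was at 4.28 FPKM in BCAA100 male replicate 6, against 5.37 in the next lowest; this is the library with the least hypothalamic marker RNA. Zc3h13 was at 10.7 FPKM in BCAA20 female replicate 3, against 9.82, and at 10.3 FPKM in BCAA50 male replicate 6, against 9.43. Fto was at 56.2 FPKM in BCAA50 female replicate 1, against 44.0, and that library had Slc17a7 at 6.23 FPKM.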

How the results depend on the processing

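No tested member passed in any comparison under any of the 36 alternatives (lowest adjusted p = 0.309 with limma). The log2 change of Mettl14 in BCAA200 against BCAA20 lay between -0.98 and -0.71 with each library left out, and between -0.91 and -0.71 under the other alternatives (pseudocounts of 0.1 and 1, no filter on low values, quantile or median scaling, array weights, only the groups compared, a replicate block, a cortex and hippocampus score, and without the 4 doubted libraries). A filter at a mean of at least 5 FPKM gave Mettl14 no value, since its mean is lower. Of 3071 recomputed log2 values 125 had another sign than the reported one; in 3 the reported value exceeded its SE. All 3 came with the cortex and hippocampus score as a covariate: Fto in BCAA50 versus BCAA100 became 0.079, Fto in BCAA200 versus BCAA100 became 0.099, and Wtap in BCAA50 versus BCAA100 became 0.0092. The cause was not tested beyond that score. With the replicate block the difference of Mettl14 between BCAA50 and BCAA100 was 0.10 (exact permutation p = 0.656). The replicate numbers showed no clear pairing of the samples. Of 36 same-numbered pairs of libraries, 6 correlated over 0.1 in their deviations (median 0.02). Of 72 pairs of the same sex with different numbers, 9 did (median -0.006). The block changed no call. Leaving out the doubted libraries (3 with low Slc17a7 and 1 whose sex-linked genes differ from its label), and all alternatives for correlations, were added after seeing the data. Without them r of Fto with Alkbh5 was 0.731, and with each library left out it lay between 0.663 and 0.786. Depth is unknown, so that counting error at these levels could not be given.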
